A study of Homo sapiens with 7 samples.

Results

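The oligometastatic L1-R2 lines are 3 of the 7 cell lines in the series, chosen by the label that classes each sample as an oligometastasis line. They are called 3T, 4T and 8T here, by the numbers in the labels of the samples. Of the 381 assays on each card, the 377 for human microRNAs were used, and 208 of these were detected in at least 1 of the 3 lines. What follows describes which microRNAs the lines held, which families dominated, which microRNAs appeared in only 1 or 2 lines, and how far the lines lay apart.

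All lines of the series descend from MDA-MB-435-GFP, an established human tumor cell line that expresses green fluorescent protein and is regarded as being of melanoma origin. In the study, a line called L1-R1 was grown from a lung macrometastasis and injected into the tail vein of athymic female mice, and L1-R2 lines were then grown from the lungs of distinct animals with few metastases. Cells were selected with G418, and the methods name all L1-R2 lines obtained as profiled. The other 4 lines, called L1Mic-R2, stem from L1Mic-R1, grown from tumor cells in lung free of macrometastases, and are used here only to say where a microRNA was also found. Every line carries the same fluorescent label and drug resistance and was passed through mouse lung. The labels give neither the age of the mice nor the passage of the cells. The labels also mention a mammary injection and a SYBR dye, where the methods describe tail vein injection and TaqMan assays. As a model, each line is the product of 1 lung, and all descend from 1 earlier line, so the spread between them covers neither other tumors nor repeated cultures. Each line was measured on 1 card, so a difference between lines also holds the error of measurement, and no test between lines was possible.

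MicroRNAs are short RNAs cut from hairpin precursors that guide the Argonaute proteins to messenger RNAs and lower their output. Bases 2 to 8 of the mature strand, the seed, pair with the target, so microRNAs with the same seed form a family with overlapping targets. Many are made from clusters of hairpins on 1 transcript, and some are restricted to a lineage, such as miR-211 in pigment cells, the miR-200 family in epithelia or miR-1 in muscle.

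The mature sequences that the results turn on are given first, 5′ to 3′, with the seed in capitals. They are RefSeq's, on build GRCh38.p14, and a sequence was used for 299 of the 377 assays and 180 of the 208 detected microRNAs. The first set holds the strongest members of the leading families, together with miR-15a, a weaker cluster partner of miR-16.
miR-146a: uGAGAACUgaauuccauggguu
miR-146b-5p: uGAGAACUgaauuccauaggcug
miR-106a: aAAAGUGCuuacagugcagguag
miR-17: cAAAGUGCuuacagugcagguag
miR-16: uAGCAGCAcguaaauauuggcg
miR-195: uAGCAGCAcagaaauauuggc
miR-15a: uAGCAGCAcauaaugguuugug
miR-29a: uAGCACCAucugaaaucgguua
miR-29c: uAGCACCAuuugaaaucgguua
miR-222: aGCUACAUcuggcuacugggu
miR-221: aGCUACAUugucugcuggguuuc
miR-24: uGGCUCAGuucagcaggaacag

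The second set holds microRNAs on which the lines differed, most of them beside a relative of the same or a similar seed. Let-7b, miR-203 and miR-1 stand without a relative, and miR-203 and miR-1 were found in 1 line each.
miR-211: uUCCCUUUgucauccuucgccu
miR-204: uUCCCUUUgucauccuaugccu
miR-200c: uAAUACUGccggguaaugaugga
miR-200b: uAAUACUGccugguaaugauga
miR-200a: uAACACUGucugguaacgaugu
miR-141: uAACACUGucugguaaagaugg
miR-449a: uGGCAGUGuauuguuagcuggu
miR-449b: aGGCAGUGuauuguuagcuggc
let-7b: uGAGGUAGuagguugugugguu
miR-203: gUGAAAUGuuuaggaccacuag
miR-1: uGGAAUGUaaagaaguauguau

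Several of these are nearly identical. Compared base by base from the 5′ end, miR-106a and miR-17 differ at 1 of 23 positions and miR-29a and miR-29c at 1 of 22. In each of the pairs miR-204 and miR-211, miR-146a and miR-146b-5p, miR-200b and miR-200c, and miR-449a and miR-449b, 2 of 22 positions differ. Whether an assay also read its close relative was not tested, and the levels of such pairs are uncertain to that extent.

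The measurement is the threshold cycle (Ct), the point in the PCR where a well becomes brighter than a set threshold. Less RNA needs more cycles, so a low Ct means much RNA, and 1 cycle is about a 2-fold step on this log2 scale. A microRNA was called detected when its Ct was below 38, and wells without a signal, called Undetermined, carry a Ct of 40. U6, a small nuclear RNA measured in 4 wells of each card, had an average Ct of 16.60 in line 3T, 15.97 in 4T and 16.39 in 8T, and its wells differed with an SD of 0.03 to 0.09 cycles. A plant microRNA, ath-miR159a, was Undetermined on all 3 cards. Line 4T gave the strongest signals, with a mean Ct of 29.30 over the microRNAs found in all lines against 29.43 in 8T and 29.64 in 3T. The small nucleolar RNAs set 4T further apart, since RNU48 was at 18.81 in 4T and at 20.33 and 20.34 in 3T and 8T, and RNU44 at 23.67, 25.59 and 24.82 in the same order. Differences between lines are therefore given as centred Ct, the Ct minus the mean of the card over the microRNAs detected in all 3 lines.

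Line 3T held 172 detected microRNAs, 4T held 184 and 8T held 177, a mean of 178 ± 6.03 (SD, n = 3). In each line this was 45.6% to 48.8% of the assays. All 3 lines shared 146 microRNAs, 33 were detected in 2 lines, 29 in 1 line and 169 in none. Of the 208 microRNAs found at all, 70.2% were thus common to all lines. The number detected followed the order of the card means, with most in 4T. When every card was first moved to the mean of the weakest one, a setting chosen after seeing the data, the counts were 172, 181 and 177. Among the 169 without detection, 156 were Undetermined in all 3 lines and 13 gave a Ct of 38 or more in at least 1. The nearest members on either side of the limit were miR-331-5p and miR-501-3p, with a lowest Ct of 37.97 each, then miR-520f at 37.61, miR-519d at 37.59 and miR-548a-3p at 37.46, all detected. Just outside lay miR-548d-5p at 38.07, miR-517c at 38.18, miR-518f at 38.31, miR-542-5p at 38.49 and miR-141 at 38.51.

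Detection was uneven along the genome. Over all 377 assays, 55.2% were detected in at least 1 line and 146 assays in all 3. The groups below count only assays for which a RefSeq sequence was used, and 180 of those 299 were detected in at least 1 line. Of 34 assays whose microRNAs lie at chr14:100874515-101065981, in the imprinted region known for placental and neural expression, 3 were detected, which is 8.82%. Only miR-494 among them was found in all lines, and miR-376a and miR-376c were seen in 4T and 8T. From the primate-specific placental cluster at chr19:53666692-53762418, 5 of 24 assays were detected, none of them in all lines. The X-linked cluster at chrX:147213538-147272399, which holds the miR-506 to miR-514 group known from melanoma and testis, had 7 of 8 assays detected and 6 in all 3 lines. Of 10 assays in another X-linked group, at chrX:50003167-50014670 with miR-532 and miR-500, 9 were detected and 8 were found in all lines.

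Signal was concentrated in few microRNAs. Taken as 2 to the power of minus Ct over the detected assays of a card, the strongest assay held 42.2% ± 2.44 (SD, n = 3) of the signal. The strongest 5 held 66.5% ± 2.08 (SD, n = 3), the strongest 10 held 82.7% ± 0.86 (SD, n = 3) and the strongest 20 held 91.9% ± 0.54 (SD, n = 3). Assays can differ in efficiency, so these shares and the ranks below are of assay signals and not of copies. At an assumed amplification of 1.8 per cycle the strongest 10 held 73.7%.

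MiR-146a, which is induced by NF-kB and dampens signaling from Toll-like receptors, ranked first in every line. Its Ct was 19.11 in 3T, 18.32 in 4T and 18.75 in 8T. It lies in the lncRNA gene MIR3142HG, at chr5:160485372-160485393 on the plus strand. MiR-16, which restrains the cell cycle and BCL2, ranked second in every line at 21.33 (3T), 20.74 (4T) and 21.49 (8T). The gap between both was 2.22 cycles in 3T, 2.42 in 4T and 2.75 in 8T, or 4.67-fold, 5.34-fold and 6.71-fold. No other neighbours among the 20 strongest were so far apart on average.

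Below these the order was close. MiR-106a (mean Ct 21.60), miR-29a (21.70) and miR-17 (21.76) followed, with means at most 0.16 cycles apart, and the line with the lowest Ct was 4T for all of them. Next came miR-222 at 22.03, miR-24 at 22.21, miR-191 at 22.35 and miR-320 at 22.64. MiR-17 and miR-106a belong to a MYC-driven family that promotes proliferation, miR-29a lowers collagens and DNA methyltransferases, and miR-222 lowers the cell cycle inhibitor CDKN1B. Of the 19 pairs of neighbours among the 20 strongest, 5 stood in the same order in all 3 lines. The other pairs changed places in at least 1 line, so that their order is not settled by these cards.

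The membership of the top was steadier than its order. In all 3 lines 9 microRNAs were among the strongest 10, and 16 among the strongest 20. The rest of the 20 with the lowest mean Ct were miR-484 (23.33), miR-19b (23.52), miR-138 (23.79), miR-374b (23.98), miR-574-3p (24.27), miR-30b (24.35), miR-30c (24.62), miR-155 (24.62), miR-20b (24.68), miR-193b (24.75) and miR-186 (24.87). MiR-155 is, like miR-146a, an immune-regulatory microRNA driven by NF-kB, and miR-193b lowers cyclin D in melanoma cells. The most changeable of these was miR-186, at 25.65 in 3T, 24.04 in 4T and 24.91 in 8T, which ranked between 14 and 22. MiR-574-3p ranked 15 in every line.

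**Figure D1:**
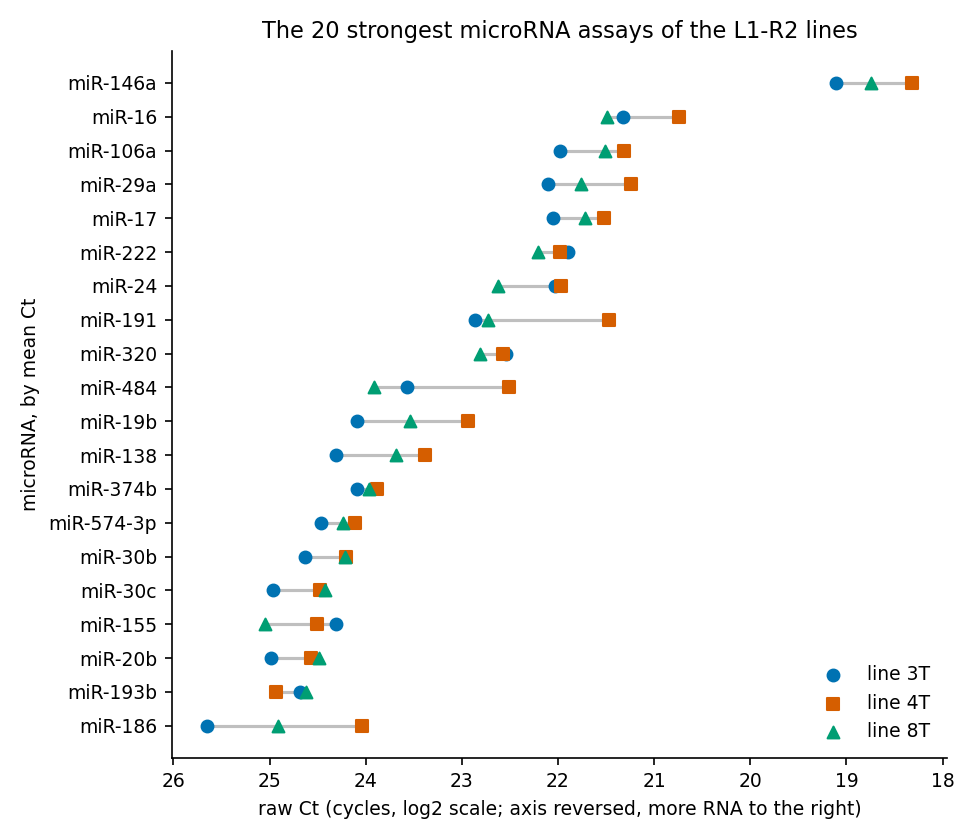
Raw Ct (cycles, log2 scale, reversed so that more RNA lies to the right) of the 20 human microRNAs with the lowest mean Ct, one symbol per line and a grey bar from the lowest to the highest line. MiR-146a stands alone at 18.32 to 19.11, and from miR-106a onwards the bars of neighbours overlap for most pairs.

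Some microRNAs often studied in tumors were not among the strongest here, and those named next were picked after their values were seen. MiR-21, a widely expressed oncogenic microRNA, had a Ct of 27.94 in 3T, 28.67 in 4T and 29.15 in 8T and was number 61 by mean Ct. Let-7a, a tumor suppressor that lowers RAS and HMGA2, was at 30.98, 31.97 and 30.30 and was number 89. MiR-31, known as a suppressor of metastasis, was at 27.27, 27.15 and 27.26, nearly equal in the lines.

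Grouped by seed, the detected microRNAs with a sequence fell into 132 families. The 6 families with the largest share held 76.5% ± 0.63 (SD, n = 3) of the signal, with 20 assays in all, of which 17 were detected in every line. Assays without a sequence in the table, among them miR-320 and miR-30b, held 4.92% on average.

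The miR-146 family led with 39.6% of the signal in 3T, 43.4% in 4T and 44.1% in 8T. Nearly all of it came from miR-146a, since miR-146b-5p, with 2 differing bases, lay 8.24 cycles higher on average. The miR-17 family, with the seed AAAGUGC, held 11.9% in 3T, 11.4% in 4T and 13.6% in 8T. It had 7 assays, 6 of them detected in all lines. The exception was miR-519d, seen in 8T alone at 37.59. The others come from the clusters on chromosomes 13, X and 7, and the strongest, miR-106a and miR-17, held 5.77% ± 0.60 and 5.14% ± 0.43 (SD, n = 3).

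The miR-15/16 family held 8.59% in 3T, 8.23% in 4T and 6.70% in 8T, and miR-16 alone gave 7.70% ± 1.01 (SD, n = 3). Next in this family was miR-195, at 28.05 (3T), 27.30 (4T) and 27.63 (8T). MiR-15a, whose hairpin shares the DLEU2 locus on chromosome 13 with a copy of miR-16, was at 36.14 in 3T and 36.11 in 4T and fell outside detection at 38.02 in 8T. A further copy of miR-16 lies on chromosome 3 beside miR-15b, whose mean Ct was 28.42. Cluster partners were thus far apart in Ct, although the levels of different assays cannot be compared exactly.

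The miR-29 family held 5.35% in 3T, 6.17% in 4T and 5.83% in 8T, and its second member, miR-29c, was at a mean Ct of 25.42. The family of miR-221 and miR-222 held 5.70% in 3T, 3.42% in 4T and 4.00% in 8T. MiR-221 lay 9.79 cycles above miR-222 on average, although both hairpins sit together on chromosome X. Its Ct was 31.83 in 3T, 32.37 in 4T and 31.26 in 8T. MiR-24, the only assay with its seed, held 5.20% in 3T, 3.44% in 4T and 3.00% in 8T. Both of these families had their largest share in 3T.

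The let-7 family, with 8 assays counting miR-98, held only 0.76% ± 0.23 (SD, n = 3) of the signal. All 7 assays named let-7 were detected in every line. Relative to the card mean, 5 of these 7 were strongest in 8T and 5 were weakest in 4T. Over all 146 shared microRNAs, 26.0% were strongest in 8T and 30.1% weakest in 4T. Relative to RNU44 and RNU48 all 7 were weakest in 4T, but so were 91.1% of all shared microRNAs. The members of a family share sequence and their assays may share signal, so they are not independent.

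**Figure D2:**
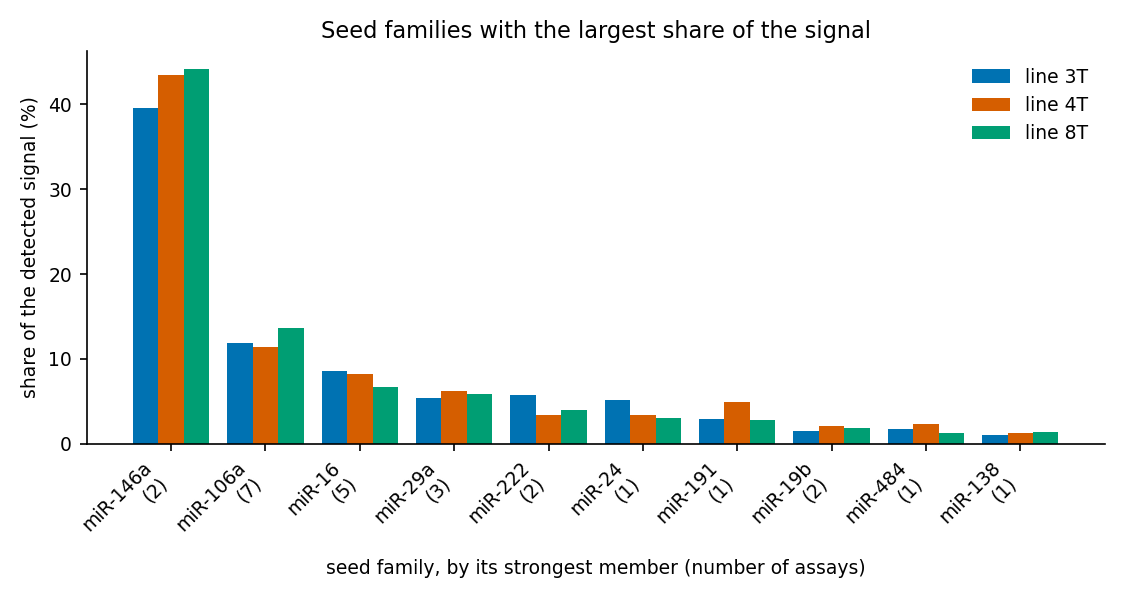
Share of the detected signal (percent, bars from 0) of the 10 seed families with the largest mean share, one bar per line, with the number of assays of each family in brackets. The miR-146 family holds 39.6% to 44.1% in each line and no other family exceeds 13.6%. Assays for which no sequence was used, such as miR-320 and miR-30b, are in no family here.

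Beside these shared microRNAs, 62 were detected in 1 or 2 lines, and most of them were weak. Their lowest Ct was 35 or more for 46 of the 62. Among microRNAs found in all lines, by contrast, the median of the mean Ct was 29.49. In the single-line set, 5 belonged to 3T, 13 to 4T and 11 to 8T. A further 13 were shared by 3T and 4T, 8 by 3T and 8T and 12 by 4T and 8T. To see which of them only grazed the limit, the strongest line was compared with the limit of 38 in the lines without detection, both centred. This gap was 2 cycles or more for 28 of the 62, 1 to below 2 cycles for 24 and under 1 cycle for 10. Of the 62, 38 were also detected in at least 1 L1Mic-R2 line and 24 in none. These 24 were 16 of the 29 found in 1 line and 8 of the 33 found in 2. Among the 24, only miR-1, miR-375 and miR-499-5p had a lowest Ct below 35. Of the 146 microRNAs found in all 3 lines, 1 was detected in no L1Mic-R2 line. No account of level was taken in these counts, and the 146 were stronger.

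In the set restricted to 1 line, line 3T had the clearest members. MiR-203, an epidermal microRNA that restrains stemness factors, was at 33.26 in 3T and Undetermined in 4T and 8T, a gap to the limit of at least 4.95 cycles. MiR-27b, a partner of miR-24 on chromosome 9, was at 34.26 in 3T, 38.59 in 4T and 38.35 in 8T. MiR-545 was at 34.84 in 3T and Undetermined in both others. These were the only members of the 3T set with a gap of 2 cycles or more, 3 of 5. Of the 4 L1Mic-R2 lines, miR-203 was also detected in 1, miR-27b in 3 and miR-545 in 2.

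Line 8T alone held miR-1, a muscle microRNA, at 33.42, with both other lines Undetermined and a gap of at least 4.37 cycles. Also seen in 8T alone were miR-133a (36.71), which is made from the same transcripts as miR-1, the hepatocyte microRNA miR-122 (36.07), miR-124 of neurons (36.73), miR-302b of embryonic stem cells (36.72) and miR-199a-3p of mesenchyme (35.88). Of these, miR-124 had a Ct of 38.47 in 3T, and the others were Undetermined in 3T and 4T. Apart from miR-1 their gap to the limit was under 2 cycles. In the L1Mic-R2 lines, miR-199a-3p was detected in 2, miR-133a in 1, and miR-1, miR-122, miR-124 and miR-302b in none. In 4T alone, miR-499-5p, a microRNA from myosin genes, was at 34.29 and Undetermined elsewhere, a gap of at least 3.38 cycles. Of the 13 in that set it alone reached 2 cycles, and it was detected in no L1Mic-R2 line.

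Among microRNAs of 2 lines, miR-489 had the widest gap. It was at 30.44 in 3T and 36.68 in 8T and was Undetermined in 4T. Its centred level was 87.2-fold higher in 3T than in 8T, and in 3T it was at least 238-fold above the limit of detection in 4T. MiR-98, a member of the let-7 family, was at 32.62 in 3T and 34.41 in 4T but at 39.60 in 8T. Let-7b was strongest in 8T, the line without miR-98. MiR-582-3p followed the same lines, at 34.95 in 3T, 35.30 in 4T and 38.82 in 8T, while miR-582-5p from the other arm of its hairpin was at 33.84, 33.57 and 33.78. MiR-98 was also detected in all 4 L1Mic-R2 lines, and miR-489 and miR-582-3p in 2 each.

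MicroRNAs missing from 4T and clear in both others included miR-375, of neuroendocrine and epithelial cells, at 34.94 in 3T and 33.42 in 8T. MiR-128, a neural microRNA, was at 33.69 in 3T, 34.27 in 8T and just beyond the limit at 38.24 in 4T. MiR-423-5p was at 34.50 in 3T and 33.71 in 8T. All 8 microRNAs of the set found in 3T and 8T had a gap of 2 cycles or more in the stronger line, and 4 of the 8 had it in both lines. MiR-128 was also detected in all 4 L1Mic-R2 lines, miR-423-5p in 3 and miR-375 in none.

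MicroRNAs missing from 3T came in part from the placental cluster of chromosome 19. MiR-519a was Undetermined in 3T, at 37.11 in 4T and at 34.39 in 8T. MiR-522, of the same cluster but with no entry matched for its mature strand and so not among the 24 assays above, was at 34.87 in 4T and 34.68 in 8T. MiR-184, known from the lens and other epithelia, was also missing from 3T and was at 33.97 in 4T and 33.01 in 8T. MiR-511, of macrophages, was at 34.66 in 4T and 37.08 in 8T. MiR-372, of embryonic stem cells, was at 35.93 and 36.39 in the same lines. MiR-519a, miR-522, miR-184, miR-511 and miR-372 were each also detected in 1 L1Mic-R2 line.

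**Figure D3:**
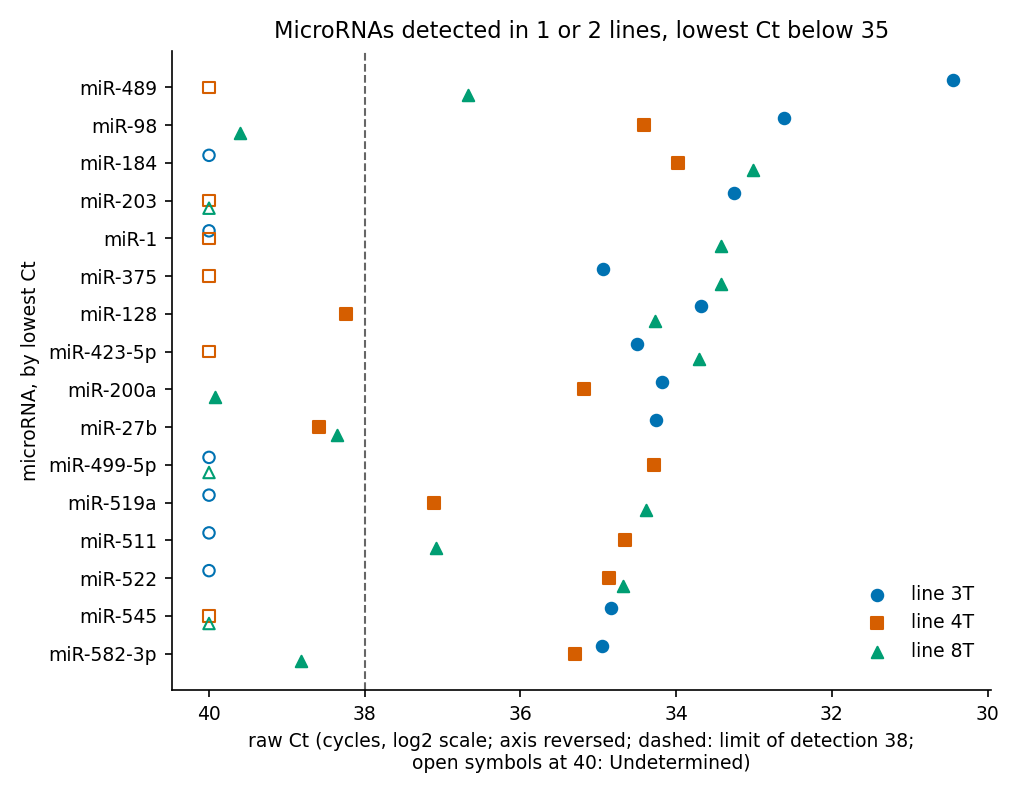
Raw Ct (cycles, log2 scale, reversed) of the 16 microRNAs detected in 1 or 2 lines with a lowest Ct below 35, one symbol per line, with open symbols at 40 for Undetermined and a dashed line at the limit of 38. MiR-489 reaches 30.44 in line 3T and is Undetermined in 4T, and miR-203, miR-1, miR-499-5p and miR-545 appear in 1 line with no signal in the others.

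Marker lists of cell types were then read in each line. They were drawn up with earlier results of these data known. The melanocyte and melanoma list held 10 microRNAs on the card, of which 9 were detected and 8 in all lines. It carried 40.1% of the signal in 3T, 43.9% in 4T and 44.9% in 8T, nearly all from miR-146a, which other cell types also hold. More particular to the lineage, miR-204 was at 26.01, 25.79 and 25.93 and miR-211 at 28.70, 30.56 and 27.49, in the order 3T, 4T and 8T. MiR-508-3p of the X-linked cluster was at 26.95, 25.95 and 25.92, miR-509-5p at 28.02, 26.62 and 26.88, and miR-506 at 31.90, 30.32 and 30.47. The same cluster gave miR-509-3-5p at 31.54, 29.96 and 30.15 and miR-510 at 34.22, 33.45 and 32.21. The sixth found in all lines, miR-508-5p, was at 33.92, 33.85 and 33.04. After centring, 5 of these 6 from the X-linked cluster were weakest in 3T and miR-508-5p in 4T, beside 34.9% of all 146 shared microRNAs that were weakest in 3T. Relative to RNU44 and RNU48, 0 of the 6 were weakest in 3T, and of all shared microRNAs 2.74% were. MiR-513-5p was at 36.77 in 3T and 36.53 in 4T but Undetermined in 8T. MiR-507 was Undetermined in all 3. Thus 8 of the 10 listed markers were detected in every line, beside 146 of all 377 assays.

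Markers of other tissues had no Ct below 30 in any line, apart from miR-9, although miR-200c came near it at 30.10 in 3T. In the melanocyte and melanoma list, miR-506, miR-507, miR-510 and miR-513-5p had none below 30 either. Over all 377 assays, 55.2% were detected in at least 1 line and 146 in all 3. The epithelial list had 6 of 8 members detected, 2 of them in all lines, and held 0.0261% of the signal in 3T against 0.00212% in 4T and 0.00689% in 8T. Most of this in 3T came from miR-200c, and without it the list held 0.00683%, 0.00131% and 0.00502%. MiR-200b and miR-375 were strongest in 8T, the former not relative to RNU44 and RNU48, and miR-429 was detected in 4T and 8T but not in 3T. MiR-205, a defining marker of squamous epithelium, was Undetermined in all lines. In the mesenchymal list 5 of 6 were Undetermined in all lines, including miR-143 and miR-145, and miR-199a-3p in 8T was the exception. From the blood list miR-451 of red cells and miR-142-5p were Undetermined throughout, miR-142-3p was at 36.03 in 3T and 35.93 in 4T, and miR-223 at 37.37 in 4T. MiR-150, of lymphocytes, was detected in all lines at 34.91, 34.93 and 33.09. Of the muscle list 2 of 4 were detected, both in 8T alone, and miR-133b was Undetermined. Of the placental and embryonic list 3 of 12 were detected. The neural list had all 5 members detected, led by miR-9 at 27.49 (3T), 27.26 (4T) and 27.68 (8T), with miR-219-5p in 4T alone at 35.96. Whether cells of the mouse lung remained in a culture was not tested, and fewer cells of a type cannot be told apart from less RNA per cell.

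Line-to-line spread was measured on the 146 microRNAs found in all 3 lines. The range of centred Ct over the lines had a median of 0.76 cycles, with quartiles of 0.41 and 1.24. It was below 1 cycle for 89 microRNAs, from 1 to below 2 for 46 and 2 or more for 11, which is 7.53%. Across these microRNAs, which are not independent replicates, raw Ct correlated between lines with Pearson's r of 0.971 to 0.976, a value that owes much to the wide span of levels. Between 3T and 4T 9 of 159 microRNAs detected in both differed by 2 cycles (4-fold) or more, or 5.66%. Between 3T and 8T these were 9 of 154, or 5.84%, and between 4T and 8T 8 of 158, or 5.06%. The typical difference was 0.53 cycles between 3T and 4T, 0.38 between 3T and 8T and 0.40 between 4T and 8T. These counts depended on the setting. With detection at Ct below 35 they were 7, 1 and 5 in the same order, and relative to RNU44 and RNU48 they were 36, 9 and 24.

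Spread was larger from a mean Ct of 30 upward. The 21 microRNAs with a mean Ct below 25 had a median range of 0.52 cycles and a largest range of 1.27. From 25 to 30 the median was 0.50 for 56 microRNAs, from 30 to 35 it was 1.08 for 61, and above 35 it was 1.79 for 8. Among the 11 microRNAs that spanned 2 cycles or more, 9 had a mean Ct of 30 or more. Let-7b and miR-211 were the exceptions. The part of measurement error at high Ct in these ranges was not tested.

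**Figure D4:**
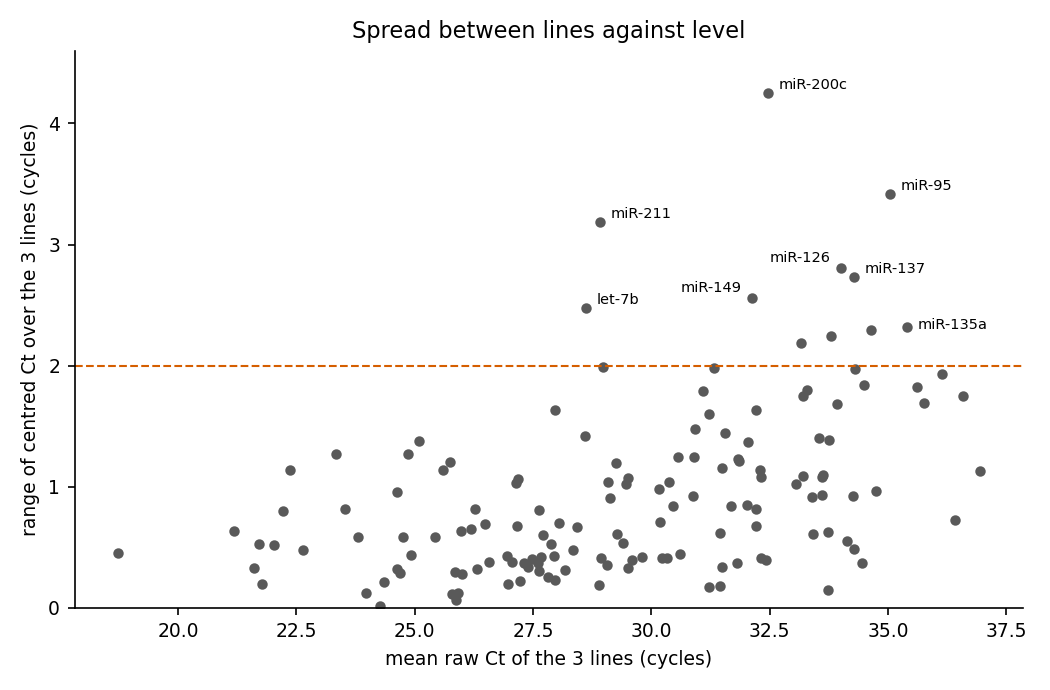
Range of centred Ct over the 3 lines (cycles) against mean raw Ct (cycles), one point for each of the 146 microRNAs detected in all lines, with a dashed line at 2 cycles. Points below a mean Ct of 25 reach at most 1.27 cycles, while miR-200c at 4.25, miR-95 at 3.41 and miR-211 at 3.19 lie highest.

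MiR-200c, which keeps epithelial cells epithelial by lowering ZEB1 and ZEB2, had the widest range of all, 4.25 cycles. Its Ct was 30.10 in 3T, 34.02 in 4T and 33.27 in 8T. Line 3T was highest, 8T followed and 4T was lowest. After centring, 3T held 19.0-fold more than 4T and 10.4-fold more than 8T. MiR-141, whose hairpin lies in the same gene, MIR200CHG on chromosome 12, was near absent, with a Ct of 38.51 in 3T and no signal in the others. MiR-200b, of the same seed but encoded on chromosome 1, was at 32.86 in 3T, 34.20 in 4T and 32.57 in 8T, and so was not highest in 3T, except relative to RNU44 and RNU48. Its neighbour miR-200a was at 34.18, 35.19 and 39.92, and miR-429 of the same cluster at 39.29, 35.88 and 35.83. The 2 members found in all lines, miR-200c and miR-200b, were thus both weakest in 4T. Their strongest line differed, except relative to RNU44 and RNU48. MiR-200a in 8T and miR-429 in 3T lay beyond the limit, and these 2 were strongest in different lines.

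Line 3T was also the strongest for miR-126 and miR-137. MiR-126, an endothelial microRNA from EGFL7, was at 32.46 in 3T, 34.50 in 4T and 35.06 in 8T. MiR-137, a neural microRNA and regulator of MITF in melanocytes, was at 33.06, 34.22 and 35.58. Their ranges were 2.81 and 2.73 cycles. MiR-200c, miR-203 and miR-489 were strongest in 3T too. Of all 146 shared microRNAs, 30.8% were strongest in 3T after centring. Among the other epithelial markers miR-200a was strongest in 3T, but miR-200b, miR-375 and miR-429 were not, apart from miR-200b relative to RNU44 and RNU48. The only endothelial marker listed was miR-126, and the part of other cells in the result was not tested.

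The pigment-cell microRNA miR-211, from an interval of TRPM1 on chromosome 15, spanned 3.19 cycles. Line 8T was highest at 27.49, 3T followed at 28.70 and 4T was lowest at 30.56, a 9.10-fold difference between 8T and 4T. MiR-204, with the same seed and encoded within TRPM3 on chromosome 9, spanned only 0.12 cycles and was among the 5 steadiest of all. Let-7b showed the same order of lines as miR-211, with 27.64 in 8T, 28.25 in 3T and 29.99 in 4T, a range of 2.47 cycles. MiR-149, from within GPC1, did so as well, with 31.08, 31.81 and 33.52 and a range of 2.56.

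The other microRNAs with wide ranges were weaker. MiR-95 was at 37.32 in 3T, 34.11 in 4T and 33.70 in 8T, a range of 3.41 cycles that starts near the limit of detection. MiR-483-5p, which is encoded within IGF2, was at 35.63, 35.20 and 33.12. MiR-135a was at 34.86, 34.45 and 36.90, weakest in 8T. MiR-449b was at 35.16 in 3T, 32.58 in 4T and 33.64 in 8T, and its neighbour miR-449a, of the same seed and also within CDC20B, was at 31.97, 29.95 and 32.06, so that both were highest in 4T, with miR-449b highest in 8T when taken relative to RNU44 and RNU48. The last past 2 cycles was miR-339-5p, outside the rule for named microRNAs, at 32.73, 34.41 and 32.35.

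**Figure D5:**
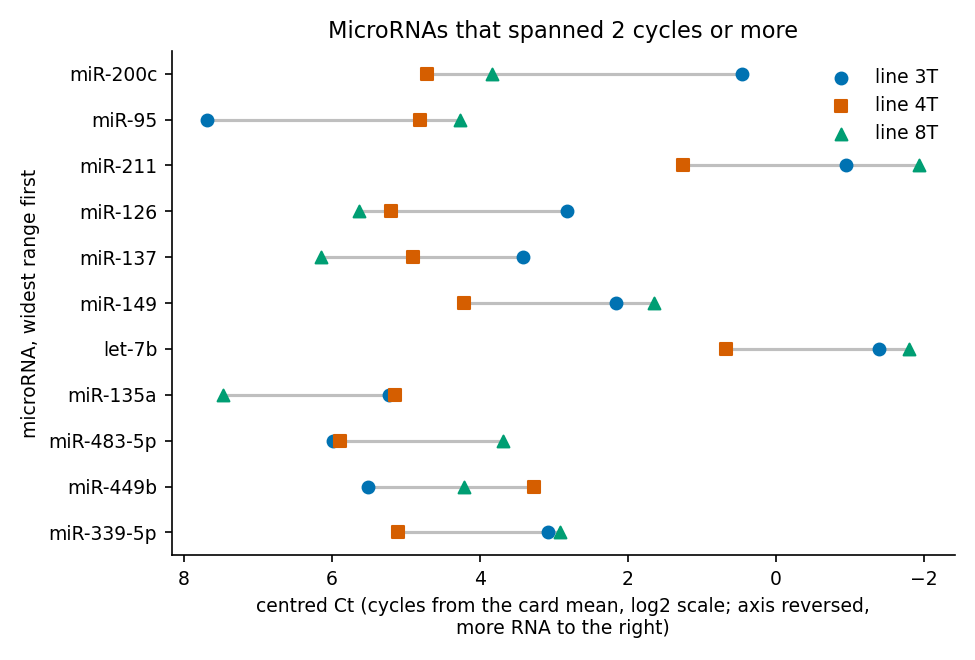
Centred Ct (cycles from the card mean, log2 scale, reversed so that more RNA lies to the right) of the 11 microRNAs whose range over the lines was 2 cycles or more, one symbol per line and a grey bar over the range. Line 3T is far to the right for miR-200c, and line 4T is the leftmost for miR-200c, miR-211, miR-149, let-7b and miR-339-5p.

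At the other end, some microRNAs hardly differed. MiR-574-3p spanned 0.02 cycles after centring, with raw values of 24.46, 24.11 and 24.24. MiR-20a spanned 0.06 cycles, miR-374a 0.11, miR-374b 0.12, miR-204 0.12 and miR-582-5p 0.14. MiR-29b (0.17), miR-212 (0.18), miR-25 (0.19) and miR-146b-5p (0.20) completed the 10 steadiest. These ranges were below the 0.29 cycles that U6 spanned on the same scale. RNU44 spanned 1.58 cycles and RNU48 1.41 on that scale, more than the upper quartile of the microRNAs.

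Families differed in their spread as well. The 6 members of the miR-17 family found in all lines had ranges of 0.06 to 0.68 cycles, with a median of 0.28. The 3 members of the miR-29 family had 0.17 to 0.58. The 7 let-7 members had 0.30 to 2.47, with a median of 1.20, and the 4 of the miR-130/301 family 0.82 to 1.45, with a median of 1.23, next to 0.76 over all microRNAs. MiR-130a, for which no sequence was matched, was not counted among these 4 and had a range of 0.37. The miR-17 family is one of the strongest on the card, and no account of level was taken in these figures.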

How the data were processed

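MicroRNA was measured by quantitative PCR with TaqMan Human MicroRNA Array A cards, 1 per line, of 384 wells. According to the study's methods, total RNA was isolated with TRIzol and data were imported with SDS RQ Manager at a threshold of 0.3. Per the labels, 30 ng of RNA entered reverse transcription with Megaplex primers. The deposited values used were average Ct, a log2 scale in cycles, before any normalization between cards, with 40 for Undetermined. The deposited error of the U6 average was used for the SD of its wells. The file names give 3T for line 4T and the reverse, and the labels were followed. No count exists behind a Ct, so that the number of cards limits the precision.

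Detection meant a Ct below 38. Signal shares were sums of 2 to the power of minus Ct. Families were formed by seed, after old assay names had been matched by hand to current mature names, and position used RefSeq on GRCh38.p14, whose gene table gives no strand. Scripts ran in Python 3.11.15 with numpy 2.4.6, pandas 2.3.3 and matplotlib 3.10.9 and were tested on simulated data. With 1 card per line, differences of 2 cycles or more were counted and not tested.

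The members and lists were chosen with earlier results of these data known. MicroRNAs named were the 20 with the lowest mean Ct, those in 1 or 2 lines with a lowest Ct below 35 and the 5 nearest the limit on either side, the 10 widest and the 10 narrowest in range, the leading members of the 6 largest families, detected markers and the controls. Others are said to be chosen later or serve as cluster partners or relatives of these. Alternatives were other detection limits and normalizations, a lower amplification, families by name, a step of 1 cycle and the omission of each line. The comparison between L1-R2 and L1Mic-R2 was not analysed here.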

Additional observations from a re-analysis of the deposited data

How the results depend on the processing

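The number of microRNAs detected per line and in all lines stayed within 1.5 times of its value under every detection limit tried, and the latter also without each line. The number found in some but not all lines was 26 in place of 62 at a limit of Ct 35, and 38 to 45 when a line was left out, which leaves only 2 lines to compare (41 without 4T and 38 without 8T). The strongest 10 assays held 73.7% and the leading family 31.8% of the signal at an amplification of 1.8 per cycle, against 82.7% and 42.4%. With families by name the leading share was the same. The strongest 10 held 82.3% to 83.1% when each line was left out.

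The median range of 0.76 cycles became 0.86 for raw Ct, 1.39 with Ct minus the mean of RNU44 and RNU48, and 0.48 for microRNAs below Ct 30 in all lines. With U6 it was 0.75 and after quantile normalization 0.78. The median SD of 0.40 was 0.27 to 0.38 when each line was left out (0.27 without 4T). With RNU44 and RNU48, 36 microRNAs in place of 9 passed 2 cycles between 3T and 4T, and 24 in place of 8 between 4T and 8T. RNU44 and RNU48 themselves set 4T apart by over 1 cycle from 8T. At 1 cycle the counts were 41 for 3T and 4T, 27 for 3T and 8T, and 34 for 4T and 8T. With detection at Ct below 35, 7 passed between 3T and 4T in place of 9, 1 between 3T and 8T in place of 9 and 5 between 4T and 8T in place of 8. Fewer microRNAs remain at this limit, and why the pairs fell unequally was not tested. The highest line was the same on all 4 other scales for miR-200c, miR-95, miR-211, miR-126, miR-137, miR-149, let-7b and miR-483-5p, but not for miR-135a and miR-449b. The lowest line changed on some scales for miR-126 and miR-483-5p. No paired analysis was possible because no comparison between groups was tested. High Ct limits what can be said of microRNAs found in 1 or 2 lines, which were each read in 1 well per line.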
